A study of Homo sapiens with 2 samples.

Results

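Transcripts of 48 genes that encode regulators of chromatin and transcription were examined for contacts with SNRPA1, a protein of the spliceosome, in MDA-231-LM2 cells. The 48 genes are a list of named genes chosen by function, drawn up with earlier results of these data known. They encode 12 histone methyltransferases and related SET-domain proteins, 3 histone demethylases, 17 chromatin remodellers, 7 acetylation enzymes with a scaffold protein of acetyltransferase complexes, 7 coregulators, Mediator subunits and a transcription factor, and 2 enzymes of DNA methylation. MDA-231-LM2 was derived from MDA-MB-231, a human breast cancer line, and colonises the lung. The line was untreated apart from standard culture, and SNRPA1 was recovered from 2 biological replicates with an antibody to the endogenous protein. The method was irCLIP, which crosslinks RNA to bound protein, immunoprecipitates the protein, and sequences the RNA that comes with it.

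SNRPA1 is a leucine-rich repeat protein of the U2 small nuclear ribonucleoprotein, where it pairs with SNRPB2 and sits on a stem-loop of the U2 snRNA. The U2 particle base-pairs with the branch site of introns and so takes part in the choice of splice sites. Genes of chromatin regulators are typically long, with many exons and large introns. Methyltransferases and acetyltransferases write marks on histone tails, demethylases and deacetylases remove them, remodellers move or evict nucleosomes with energy from ATP, and coactivators and Mediator link these steps to RNA polymerase II.

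The authors deposited 2 lists of intervals, and neither keeps the replicates apart, so no spread between replicates and no test between samples can be given. The shorter list, called the height list here, gives the height of each peak in tags and an Entrez identifier, and holds 1373 distinct intervals. The longer one, from the caller CLIPper, gives the number of reads per interval with an Ensembl gene identifier and holds 7651 distinct intervals. All heights, read numbers and P values below were computed by the authors. Library depth is unknown, RNA abundance was not measured in these files, and control libraries were not analysed here. Of markers of mesenchymal or basal-like breast cancer lines, 1 of 7 genes (EGFR, 4 tags) held a peak, and of luminal or epithelial markers 0 of 6 did, which measures no expression level. Their median lengths were 75.2 and 64.1 kb, and 8.27% of all protein-coding genes of 50 to 100 kb held a peak. The counts therefore do not tell the marker groups apart.

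A height-list peak was present in 17 of the 48 genes (35.4%, 95% Wilson interval 23.4 to 49.6, counting error only). Of all 20039 nuclear protein-coding genes in the RefSeq table, 1207 (6.02%) held one. The regulators had 19 peaks in all, 1 in each of 15 genes and 2 each in CUX1 and KMT2C. At least 2 peaks were present in 2 of the 48 genes (4.17%), against 0.624% of protein-coding genes. The 48 genes are longer, with a median of 151.7 kb against 24.1 kb. Shares by length are given below for 1 or more peaks only. The genes with a peak were KMT2A, KMT2C, KMT2D, EZH2, SMARCA2, SMARCC1, ARID1B, CHD1, CHD9, EP300, TRRAP, HDAC9, NCOA1, MED13, MED13L, CUX1 and TET2. The 31 others, namely KMT2E, SETD2, SETD5, NSD1, NSD2, NSD3, EHMT1, ASH1L, KDM4C, KDM5A, KDM6A, SMARCA4, SMARCD3, ARID1A, ARID2, PBRM1, CHD2, CHD4, CHD6, CHD7, CHD8, BPTF, INO80, CREBBP, KAT6A, KAT6B, HDAC4, NCOA2, NCOA3, NCOR1 and DNMT3A, were listed with 0 peaks. A gene without a listed peak may still be contacted below the authors' threshold.

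The peaks were low and of ordinary height. They held 3 to 16 tags with a median of 4, which was also the median of all 1373 intervals. Heights of 5 or more tags were reached by 8 of the 19 peaks (42.1%) and by 40.2% of all intervals, and heights of 7 or more by 4 (21.1%) and 19.5%. Peaks of 5 or more tags were present in 8 of the 48 genes (16.7%), against 2.40% of protein-coding genes, and peaks with a deposited P under 1e-5 in 10 (20.8%), against 2.93%. These shares were not split by gene length, and the 48 genes are longer than protein-coding genes in general. Together the 19 peaks carried 98 of the 11999 tags of summed height (0.817%), of which CUX1 alone held 20. Their widths ran from 30 to 34 nt with a median of 33 nt, the same median as in the whole list. Each of the 19 was assigned to 1 gene only, as were most intervals of the list, where 39 had more than 1 gene. All 16 whose gene has a strand in the RefSeq promoter table lay on that gene's sense strand. This may follow from how intervals were assigned to genes, and the share over all intervals was not computed.

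**Figure D1:**
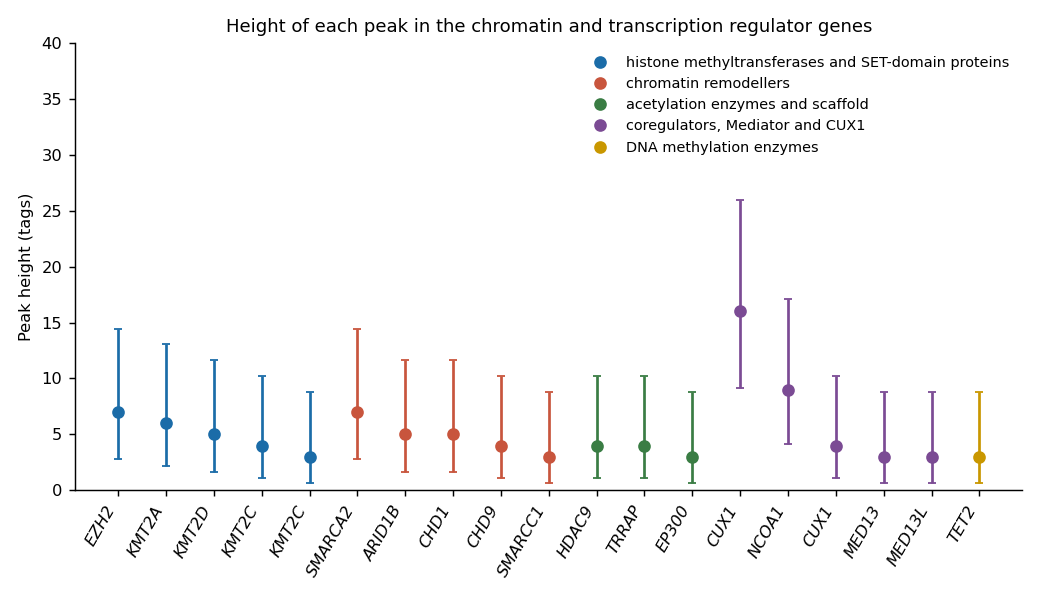
Height in tags (vertical axis) of each of the 19 peaks in the regulator genes, coloured by class, with exact 95% Poisson intervals that cover counting error only. The taller CUX1 peak reaches 16 tags, and the intervals of all the other peaks overlap one another.

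Among histone methyltransferases and SET-domain proteins, 4 of 12 genes held a peak (33.3%, Wilson interval 13.8 to 60.9). The 12 genes had a median length of 111.7 kb, and 17.3% of all protein-coding genes of 100 to 200 kb held a peak. Of the 4 genes, 3 belong to the KMT2 family. These 3, KMT2A, KMT2C and KMT2D, encode enzymes that methylate lysine 4 of histone H3. The tallest peak of the class was in EZH2, the catalytic subunit of the Polycomb repressive complex that methylates lysine 27 of H3. It had 7 tags (95% Poisson interval 2.81 to 14.4) at hg19 chromosome 7, 148568483 to 148568516, minus strand. KMT2A, the MLL gene rearranged in leukaemia, had 6 tags (2.20 to 13.1; chromosome 11, 118368116 to 118368149, plus strand). Both stood at a deposited P of 1e-100, the lowest value in the list, which 19.3% of all intervals share.

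KMT2D and KMT2C encode the catalytic subunits of complexes that mark enhancers. The KMT2D peak had 5 tags (1.62 to 11.7; chromosome 12, 49446104 to 49446137, minus strand; deposited P of 0.000375). KMT2C had a peak of 4 tags (1.09 to 10.2; chromosome 7, 151875092 to 151875123, minus strand; deposited P of 7.93e-06) and a second of 3 tags at 151898694 to 151898723 (deposited P of 0.0243), 23602 nt apart. In the CLIPper list the order of the KMT2C sites was the opposite, with 8 reads at the first and 16 at the second. At 16 reads for 3 tags, or 5.33 reads per tag, the second site had the highest ratio of the 19, whose median was 1.5, against 1.67 over all intervals shared by the lists. The fourth KMT2 gene on the list, KMT2E, had no peak at a length of 100.8 kb, close to the 90.3 kb of KMT2A. Of the 8 other SET-domain genes only EZH2, at 76.9 kb the shortest of them, held a peak, while the longest, ASH1L (227.9 kb) and EHMT1 (217.1 kb), held none.

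None of the 3 histone demethylase genes on the list held a peak, and KDM4C, at 454.8 kb, was the longest of the 31 genes without one. Most long genes held none: 28.1% of protein-coding genes of 200 kb or more held a peak, and 17.3% from 100 to 200 kb. Demethylase genes as a family were not devoid of peaks. Of 14 further demethylase or related genes 4 held at least 1, with 6 tags in PHF8, 5 in KDM2A, 5 at the tallest of 3 peaks in JMJD1C, and 4 in KDM2B. Over both lists 4 of 17 genes (23.5%, Wilson interval 9.56 to 47.3) held a peak, against 6.02% of all protein-coding genes.

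Among chromatin remodellers 5 of 17 genes held a peak (29.4%, Wilson interval 13.3 to 53.1). The 17 genes had a median length of 140.5 kb, and 17.3% of all protein-coding genes of 100 to 200 kb held a peak. The 5 were 3 of 8 in the SWI/SNF family and 2 of 7 in the CHD family, with neither of BPTF, a subunit of the NURF complex, and INO80. SMARCA2 encodes BRM, an ATPase of SWI/SNF, and had the tallest with 7 tags (2.81 to 14.4; chromosome 9, 2155735 to 2155766, plus strand; deposited P of 1e-100). Its paralogue SMARCA4, which encodes the alternative ATPase BRG1, had none at 101.2 kb against 178.3 kb. SMARCA2 was also the only one of the 48 genes that contains a copy of the U2 snRNA gene, RNU2-25P, in the RefSeq table. Whether its peak lies on that copy was not analysed here.

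The DNA-binding subunit ARID1B, a gene of 434.8 kb, had 5 tags (1.62 to 11.7; chromosome 6, 157139239 to 157139270, plus strand; deposited P of 6.29e-13), whereas its paralogue ARID1A (86.1 kb) and ARID2 (178.3 kb) had none. SMARCC1, a core scaffold subunit, had 3 tags (0.619 to 8.77; chromosome 3, 47663294 to 47663327, minus strand; deposited P of 0.00503). CHD1, a remodeller that reads methylated lysine 4 of H3, had 5 tags (chromosome 5, 98236578 to 98236611, minus strand; deposited P of 8.09e-08) in a gene of 75.0 kb. CHD9 had 4 tags (chromosome 16, 53295282 to 53295313, plus strand; deposited P of 6.68e-06) in 272.5 kb. The 5 CHD genes without a peak ranged from CHD4 at 37.3 kb to CHD6 at 216.3 kb, a range that includes the length of CHD1.

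The 3 peaks in the listed acetylation genes had 3 to 4 tags, around the median of 4 over all intervals. EP300, the acetyltransferase p300, had 3 tags (0.619 to 8.77; chromosome 22, 41554059 to 41554091, plus strand; deposited P of 0.0107), and its paralogue CREBBP had none although the gene is longer, 155.7 against 87.5 kb. KAT6A and KAT6B, acetyltransferases of the MYST family, had none. TRRAP, a large scaffold shared by several acetyltransferase complexes, had 4 tags (1.09 to 10.2; chromosome 7, 98558609 to 98558642, plus strand; deposited P of 5.51e-05). HDAC9, a class IIa deacetylase and the longest of the 48 genes at 915.6 kb, also had 4 tags (chromosome 7, 18247162 to 18247194, plus strand; deposited P of 2.98e-07), while its relative HDAC4 (353.5 kb) had none. The same height thus came with different P values. Over the 5 member peaks of 4 tags P ran from 2.98e-07 in HDAC9 to 0.000171 in CUX1, and over the 3 of 5 tags from 6.29e-13 in ARID1B to 0.000375 in KMT2D.

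The tallest peaks of the whole set lay among the coregulators and CUX1, a homeodomain transcription factor gene. CUX1 had 16 tags (9.15 to 26.0) at chromosome 7, 101586362 to 101586394, plus strand, with a deposited P of 1e-100 and 32 CLIPper reads. Only 64 of the 1373 intervals were taller. A second CUX1 peak of 4 tags (1.09 to 10.2; 101531125 to 101531156; 8 CLIPper reads) lay 55237 nt upstream in the direction of transcription. Both sites had 2 reads per tag, unlike the pair in KMT2C. The 5 protein-coding genes nearest in length to CUX1 held 1 peak in all, and the 5 nearest to KMT2C held 2, in 2 genes. CUX1 and KMT2C were taken because they held the most peaks of the 48 genes. The comparison therefore cannot show that they are unusual for their length.

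NCOA1 encodes the steroid receptor coactivator SRC-1 and had 9 tags (4.12 to 17.1; chromosome 2, 24815452 to 24815483, plus strand; deposited P of 1e-100; 13 CLIPper reads). Neither NCOA2 (346.7 kb, longer than NCOA1 at 279.4 kb) nor NCOA3 (155.0 kb) had a peak, and the corepressor NCOR1 had none. MED13 and MED13L, alternative subunits that tie the kinase module to Mediator, both held a peak of 3 tags (0.619 to 8.77). That of MED13 lay at chromosome 17, 60036349 to 60036381, minus strand (deposited P of 0.0251), and that of MED13L at chromosome 12, 116489595 to 116489628, minus strand (deposited P of 0.00644). Of the DNA methylation enzymes, TET2, which oxidises methylcytosine, had 3 tags (chromosome 4, 106157625 to 106157657, plus strand; deposited P of 0.0364, the highest of the 19), and the methyltransferase gene DNMT3A had none.

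Per length of gene, the classes could not be told apart at these numbers. The 5 peaks of the methyltransferases and SET-domain proteins over 1.68 Mb gave 2.98 peaks per Mb (95% Poisson interval 0.968 to 6.96), and the 5 of the coregulators, Mediator and CUX1 gave 2.66 (0.865 to 6.22). Remodellers had 1.89 (0.615 to 4.42) from 5 peaks and the acetylation group 1.52 (0.313 to 4.43) from 3. The ratio of methyltransferases to remodellers was 1.57 with an exact interval of 0.362 to 6.84, and that of methyltransferases to the acetylation group was 1.97 (0.382 to 12.7). The intervals of all 6 ratios between these 4 classes included 1, which does not show that the classes are alike. The demethylases, with 0 peaks over 0.804 Mb, had an upper bound of 4.59 per Mb. All 48 genes together had 2.06 peaks per Mb (1.24 to 3.22), against 1.05 over all protein-coding genes. Within the methyltransferase class the KMT2 genes had 4 peaks over 0.534 Mb, 7.49 per Mb (2.04 to 19.2), and the 8 others 1 over 1.14 Mb, 0.875 per Mb (0.0222 to 4.88). This split was made after the values were known, and it holds for the listed genes only. Beyond the 48 genes, KMT2B, SETD1A and SETD1B had no peak. They are among 19 further methyltransferase and SET-domain genes, which together had 6 peaks, 3.88 per Mb (1.42 to 8.45).

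**Figure D2:**
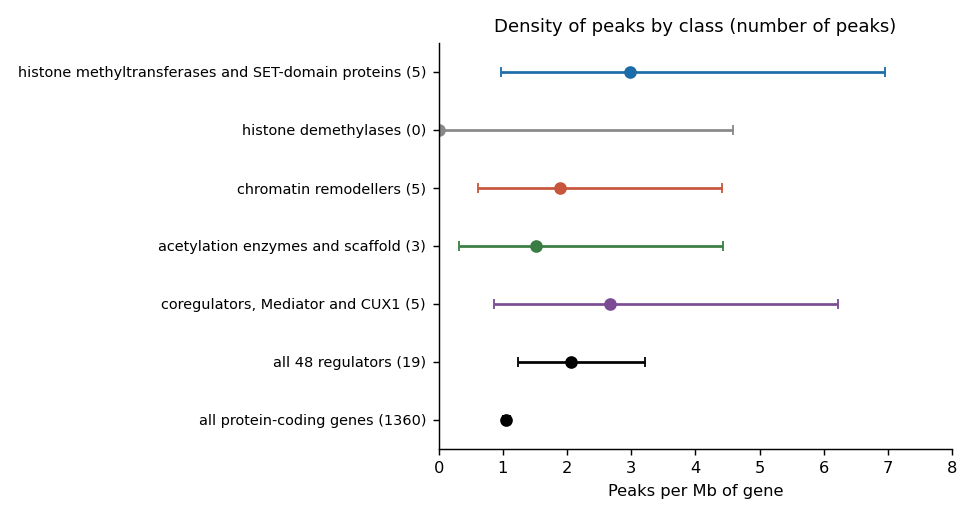
Height-list peaks per Mb of gene (horizontal axis) by class of regulator, for all 48 genes and for all protein-coding genes, with exact 95% Poisson intervals that cover counting error only. The number of peaks stands in brackets, the class intervals overlap widely, and the DNA methylation enzymes (1 peak, interval 0.102 to 22.4) are left out of the plot.

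The 48 genes are long, and length moved with the presence of a peak in the list as a whole. Their median length was 151.7 kb, against 24.1 kb over all protein-coding genes and 129.6 kb over those with a peak. Among protein-coding genes the share with a peak was 1.71% under 50 kb, 8.27% from 50 to 100 kb, 17.3% from 100 to 200 kb and 28.1% at 200 kb or more. Among the regulators it was 1 of 3, 4 of 7 (57.1%, Wilson interval 25.0 to 84.2), 5 of 23 (21.7%, 9.66 to 41.9) and 7 of 15 (46.7%, 24.8 to 69.9) in the same order. From 100 to 200 kb, the class of 23 of the 48 regulators, the share was thus near that of all genes of that length. It was farther above it at 200 kb or more and below 100 kb, and in the latter range KMT2D, EZH2, KMT2A, CHD1 and EP300, 5 of 10 genes, held a peak.

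**Figure D3:**
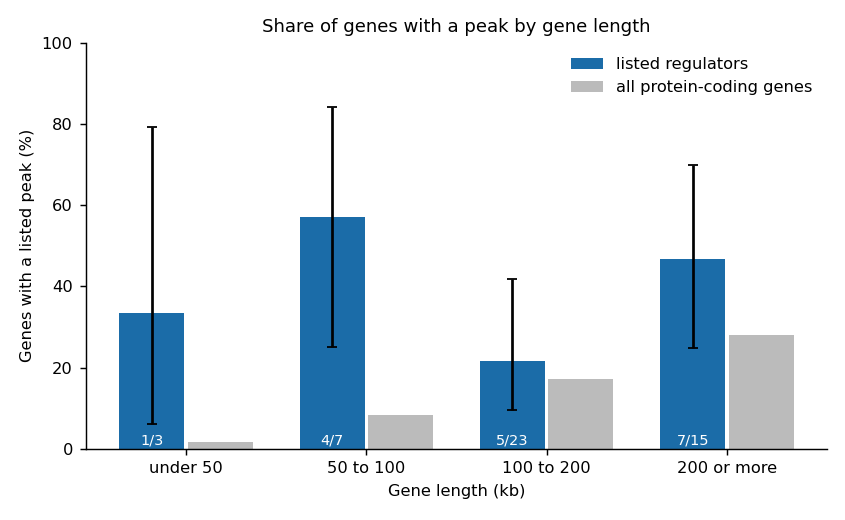
Percentage of genes with a height-list peak (vertical axis) in 4 classes of gene length in kb, for the regulators (blue, with 95% Wilson intervals and counts in the bars) and for all protein-coding genes (grey). From 100 to 200 kb the bars stand at 21.7% and 17.3%, and from 50 to 100 kb at 57.1% and 8.27%.

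Within the set, genes with and without a peak overlapped in length. The 17 with a peak had a median of 178.3 kb (range 41.8 to 915.6) and the 31 without one a median of 148.4 kb (37.3 to 454.8). At 200 kb or more 8 genes had no peak. Height showed no simple order by length, as HDAC9, the longest of all, had 4 tags, and KMT2D, with a peak in only 41.8 kb, had 5.

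**Figure D4:**
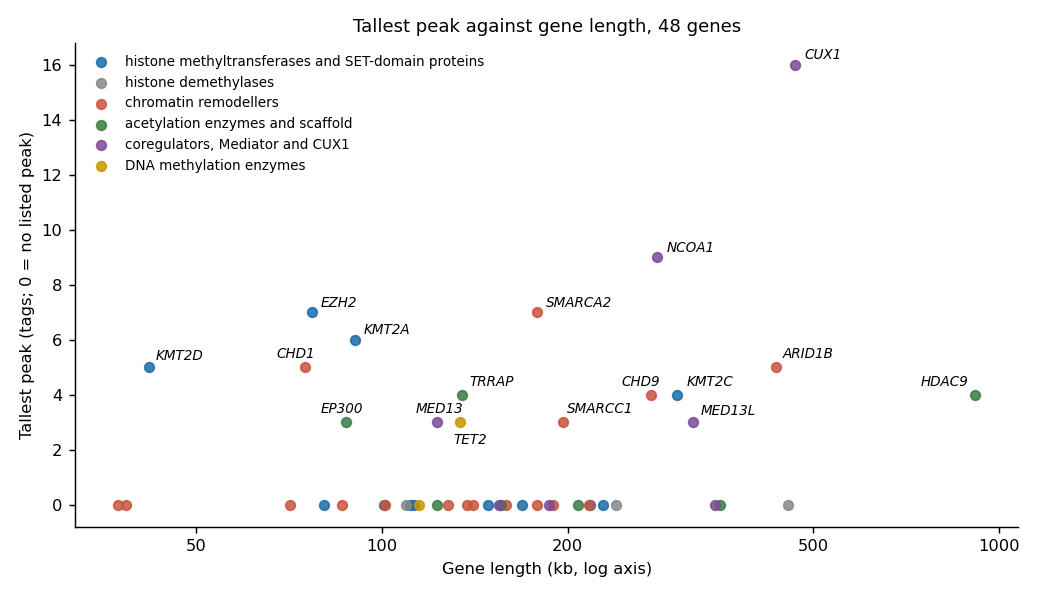
Tallest peak in tags (vertical axis, 0 for no listed peak) against gene length in kb (horizontal log axis) for the 48 genes, coloured by class. Genes with and without a peak are found at most lengths, and CUX1 (16 tags) and NCOA1 (9 tags) stand highest.

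CLIPper intervals were named only through an interval shared with the height list, since no table used here pairs Ensembl identifiers with symbols. The 31 genes without a height-list peak therefore have no CLIPper value here. All 19 peaks lay on a CLIPper interval of the same strand, as did 97.2% of all 1373 height-list intervals, which is no replication because both lists describe the same libraries. The 17 genes had 53 CLIPper intervals of 3 to 32 reads with a median of 5, as in the whole list. Intervals of 10 or more reads made up 9.43% of the 53, against 17.7% of all CLIPper intervals, and 5 genes held 1 each: CUX1 (32), KMT2C (16), NCOA1 (13), SMARCA2 (13) and KMT2A (10).

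Joined within 50 nt, the 53 intervals formed 46 sites, since a footprint could be cut into abutting pieces. In EP300 a pair of adjoining pieces with 7 reads each lay on the height-list peak, and in TET2 a pair with 9 each. After joining, the regulators had a median of 2 sites per gene, and 14 of the 17 had 2 or more (82.4%). Over the 1093 genes of the height list that could be paired with 1 Ensembl identifier the median was 1, with 47.3% at 2 or more. Their median length was 134.1 kb. At 100 kb or more, all 12 regulators with a height-list peak had 2 or more sites, against 59.5% of 677 paired genes. Per 100 kb the regulators had a median of 1.14 sites and the paired genes 1.09, so per length the medians lay close together.

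Most CLIPper intervals of the regulators lay outside the height list: 32 of 53 had no height-list peak, with a median of 3 reads, while the 21 on a peak (39.6%) had a median of 8. Over all paired genes 58.3% of CLIPper intervals lay on a height-list peak. In 5 of the 17 genes the strongest CLIPper interval was off the height-list peak. The share over all paired genes was not computed, so whether this is usual is not known. In SMARCA2 it had 13 reads and lay 26746 nt downstream of the peak, whose own interval had 9. In MED13L it had 8 reads against 4 at the peak, in CHD9 7 against 4, in KMT2D 7 against 5 and in MED13 4 against 3. Each of these 5 genes has 1 height-list peak, so the height list gives no order of sites there. The read numbers are small, and no counting intervals were computed for them.

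KMT2D, chosen for mention after its values were seen, stood apart by its density of sites. It had 7 intervals of 3 to 7 reads in 6 sites spread over 31133 nt, or 74.5% of the gene. At 14.3 sites per 100 kb it lay far above the other 16 genes, which ran from 0.437 in HDAC9 to 2.60 in EZH2, and it was among the 15 highest of 1093 paired genes (1.37%). Of 99 paired genes between 30 and 50 kb it was the only one with 6 or more sites. KMT2D was also the only regulator whose height-list peak had an expected height above 0.00, at 0.02 tags. KMT2A and CHD1 each had a single interval in the whole gene, of 10 and 8 reads, and EP300 had its reads at 1 joined site. A single joined site was the usual case, with 52.7% of all paired genes. HDAC9 and ARID1B had weak intervals far apart, 4 sites each of 3 to 5 reads over 498657 and 344963 nt.

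**Figure D5:**
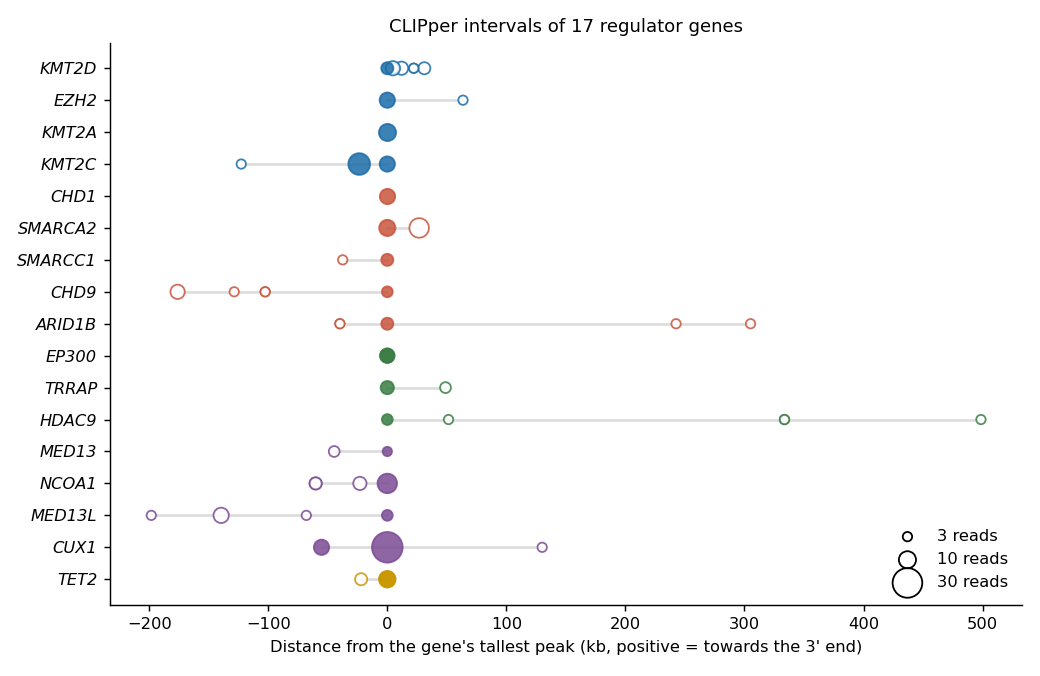
CLIPper intervals of the 17 regulator genes by distance in kb from the gene's tallest height-list peak (horizontal axis, positive towards the 3′ end), with circle area proportional to reads. Filled circles lie on a height-list peak and open circles do not; KMT2D shows a dense row within 31133 nt, and SMARCA2 an open circle of 13 reads beside its peak.

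Further genes of the same families, listed from textbook knowledge, were shorter than the 48. Of 98 such genes, with a median length of 50.9 kb, 15 held a peak (15.3%, Wilson interval 9.50 to 23.7). Of all protein-coding genes 6.02% held one, and of those of 50 to 100 kb 8.27% did. The 21 peaks of the 98 genes gave 2.49 per Mb (1.54 to 3.80), against 2.06 in the 48 genes and 1.05 over all protein-coding genes. The tallest was in HDAC8, a class I deacetylase gene with 3 peaks, at 102 tags. HDAC8 contains the U2 copy RNU2-68P in the RefSeq table, and no other of the 98 genes contains one. Whether any HDAC8 peak lies on that copy was not analysed here. NCOA4 followed with 8 tags, PHF8 with 6, and KDM2A, JMJD1C and SMYD3 with 5 each, SMYD3 having 3 peaks over 757.9 kb. By class, peaks were present in 4 of 19 further methyltransferase genes, 3 of 26 remodeller genes, 2 of 20 acetylation genes, 2 of 14 coregulator and Mediator genes and 0 of 5 DNA methylation genes. The class counts were not split by gene length. Over both lists 32 of 146 genes (21.9%) held a peak at a median length of 81.2 kb, against 6.02% of all protein-coding genes.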

How the data were processed

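SNRPA1 irCLIP libraries from 2 samples of 1 group were analysed as the authors' interval lists. The submitters' processing notes name cutadapt 1.10, BWA 0.7 and the build hg19. In the height list the signal deposited by the authors is the height in tags (pooled and unique, per its name), with an Entrez identifier, an expected height and a P. In the other list the authors deposited a p-value per interval, called with CLIPper per its name, with the read number and Ensembl identifier. For the height list the sources used here name no caller.

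Gene symbols for Entrez identifiers came from the GRCh38.p14 RefSeq table, used for names, strand, gene lengths and gene content only. All positions are 1-based hg19 as deposited. An Ensembl identifier was named where a height-list interval of 1 gene overlapped, on its own strand and by 1 nt or more, CLIPper intervals of 1 identifier, which paired 1093 genes (85.5% of those named). Annotation to exons, introns or UTRs and sequences of the intervals were not analysed here, as no hg19 genome was used. A gene that the height list's annotation lacks could hold no peak, so percentages over all protein-coding genes may be too low.

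Shares carry Wilson and heights and densities exact Poisson 95% intervals, and ratios of densities exact binomial ones, which cover counting error only. No test was run, since the replicates are pooled and genes are not replicates. The pairing, the joining and the Poisson intervals were tested on simulated data, the pairing without ambiguous identifiers and the Poisson intervals at a single mean. The Wilson intervals and those of the ratios were not tested in this way. The members and lists were chosen with earlier results of these data known. Named by rule were all members with a peak, the other members, and the 5 further family genes with the tallest peaks, with ties. KDM2B, KMT2B, SETD1A, SETD1B and the lengths of members without a peak were added after their values were seen. Alternatives covered the P and p thresholds, tag and read minimums, joining within 50 nt, shared intervals and the definition of overlap. Computations used scipy 1.17.1, pandas 2.3.3 and numpy 2.4.6 under Python 3.11.15, and plots matplotlib 3.10.9.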

Additional observations from a re-analysis of the deposited data

How the results depend on the processing

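Of 31 alternatives, 15 left the value within 1.5 times the reported count or inside its 95% interval, and 16 moved it, mostly because stricter thresholds keep fewer peaks by construction. The 15 are weak evidence of stability, since class intervals are wide. With P under 1e-5 the coregulator density fell from 2.66 to 1.07 per Mb and the acetylation density from 1.52 to 0.506, both inside their intervals. The demethylase density of 0 and the 100% overlap within 50 nt could not have moved. With only peaks of P under 1e-5, 10 of the 48 genes held a peak (20.8%, against 2.93% of protein-coding genes), the peaks numbered 10, the density was 1.08 per Mb, that of the DNA methylation enzymes was 0, and 7 further family genes held a peak. With only peaks of 5 or more tags, 8 genes held one (16.7%, against 2.40%), the peaks numbered 8, the density was 0.867 per Mb, that of the acetylation group and of the DNA methylation enzymes was 0, the median tallest peak was 6.5 tags, and 6 further family genes held a peak. The shares of protein-coding genes under these thresholds were not split by gene length. With only CLIPper intervals of p under 1e-10, 4 genes and 4 intervals remained, and with only those of 10 or more reads 5 and 5. The alternatives for the further family genes were chosen after seeing the data. Naming CLIPper identifiers from a table was not run, because the naming through shared intervals was the only one possible here. Replicates could not be left out in turn, as the lists do not separate them. No paired analysis was possible because there is only 1 group. Depth is unknown, and heights of 3 to 16 tags carry wide counting intervals: among single peaks only the taller one of CUX1 had an interval that did not overlap those of the peaks of 3 tags.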
